A study of Arabidopsis thaliana with 12 samples.

Results

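The 10 genes described here, AT4G10270, AT4G24110, AT4G39675, AT5G26200, AT1G19530, AT5G66985, AT4G17670, AT5G42200, AT4G27450 and AT1G74940, belong to the transcriptional response of Arabidopsis to low oxygen and have no established function. They were taken by locus from the known hypoxia response genes, with earlier results of these data known, and are followed gene by gene across 4 genotypes. They make up 10 of the 13355 genes named on the array, and all 10 were among the 7034 that passed the filter on dim genes. Each is read by 1 probe set, and 5 of the genes lie on chromosome 4, 3 on chromosome 5 and 2 on chromosome 1.

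Whole seedlings of wild-type Col-0 were compared with seedlings of 3 nitric oxide (NO)-deficient mutants in the Col-0 background. The nia1nia2 mutant is mutated in both nitrate reductase genes, noa1-2 carries a mutant allele of NITRIC OXIDE ASSOCIATED1 (NOA1), and nia1nia2noa1-2 combines the mutations. All seedlings were 15 days old, grew on MS medium with 1% sucrose in a day of 16 h light and 8 h dark, and were harvested 5 h after dawn. Every genotype had 3 biological replicates, each on its own Affymetrix ATH1 array, numbered 1 to 3 except in nia1nia2, where the numbers are 2 to 4. No seedling on these arrays was exposed to low oxygen, so the response of the genes to hypoxia was not measured here. Because whole seedlings were used, fewer cells that express a gene and less RNA per cell cannot be told apart.

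In Arabidopsis, the transcription factors of ERF group VII are degraded through the N-end rule pathway while oxygen is present, and they accumulate and switch on a set of hypoxia genes when oxygen runs out. Nitrate reductase takes nitrate to nitrite and is also a source of NO, and NOA1 is a GTPase of the plastid that is needed for plastid ribosomes and for normal NO levels. Whether a gene of the hypoxia response moves in seedlings with little NO, and with which of these mutations, is the question the comparison addresses. Some of the 10 genes carry a family name without a known role. AT5G26200 is annotated as a mitochondrial substrate carrier, AT5G42200 as a RING-type protein, AT4G10270 as a wound-responsive family protein and AT4G27450 as an aluminium-induced protein with YGL and LRDR motifs. AT4G17670 and AT1G74940 belong to the plant-specific DUF581 (FLZ zinc finger) family, whose members bind the energy-sensing kinase SnRK1. For AT4G24110, AT4G39675, AT1G19530 and AT5G66985 no role is given here.

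Values below are log2 of the deposited intensity. The nia1nia2 arrays differed more among themselves than the arrays of the other genotypes. The median SD over 3 replicates was 0.26 in nia1nia2 over all tested genes against 0.11 to 0.12 elsewhere, and for the 10 genes it was 0.41 against 0.14 to 0.15. The limma fit over the 12 arrays uses a single estimate of each gene's spread, so this spread enters every comparison. Where nia1nia2 varies more, that estimate is too small for comparisons of nia1nia2 with another genotype and too large for those without nia1nia2. The genes NIA1, NIA2 and NOA1 are not among the probe sets named here, and the labels could not be checked against them. The leaf gene RCA (Rubisco activase) had genotype means of 13.45 to 13.86 and the root gene PYK10 (a beta-glucosidase) of 12.67 to 12.86. RCA was lower in nia1nia2 than in Col-0 (-0.40, adjusted p = 0.00767) and PYK10 was not called, and the part of organ shares in the results was not tested. The study treats a log2 intensity of 6 as the transition between noise and signal, and 5 of the 10 genes had a mean under 6 in at least 1 genotype, where the size of a difference is not exact.

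Among the 10 genes, 3 rises and 2 falls followed nia1nia2, meaning that a gene was called in the same direction in nia1nia2 and nia1nia2noa1-2 against Col-0 and in both against noa1-2. The rises were AT4G24110, AT4G39675 and AT5G26200, and the falls AT4G27450 and AT1G74940. AT4G10270 was raised in nia1nia2noa1-2 alone, above each of the other 3 genotypes. No gene met the matching definition for noa1-2, although AT5G66985 fell and AT5G42200 rose in that mutant. AT1G19530 fell in nia1nia2 and nia1nia2noa1-2, and AT4G17670 fell in both nia1nia2 and noa1-2. These groups rest on limma, which shares information on the spread between genes. By the methods' t-test after Benjamini-Hochberg adjustment, AT4G39675 alone kept all 4 calls that define following nia1nia2, and AT4G10270 kept the call against Col-0 but not those against nia1nia2 and noa1-2. The adjustment was added here, since the methods give a p under 0.05 and name none. At that looser threshold the t-test kept every limma call of the 10 genes against Col-0.

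Counted at an adjusted p under 0.05, 4 of the 10 rose and 3 fell in nia1nia2noa1-2 against Col-0, beside 10.6% and 11.3% of all tested genes. In nia1nia2, 3 rose and 4 fell, beside 16.4% and 26.6%. In noa1-2, 1 rose and 2 fell, beside 5.00% and 4.08%. A single gene moves such a share of the 10 by 10 percentage points. The 10 genes were chosen with earlier results of these data known, so a share above that of all tested genes can come from the choice. The 3 comparisons use the same Col-0 arrays. All arrays of a mutant were above, or all below, all Col-0 arrays for 9 of the 10 genes in nia1nia2noa1-2, 7 in nia1nia2 and 3 in noa1-2, where 49.2%, 47.0% and 40.8% of all tested genes did so. The median log2 difference of the 10 genes was 0.24, -0.11 and -0.22 in these mutants, and that of all tested genes -0.03, -0.10 and -0.03.

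**Figure D1:**
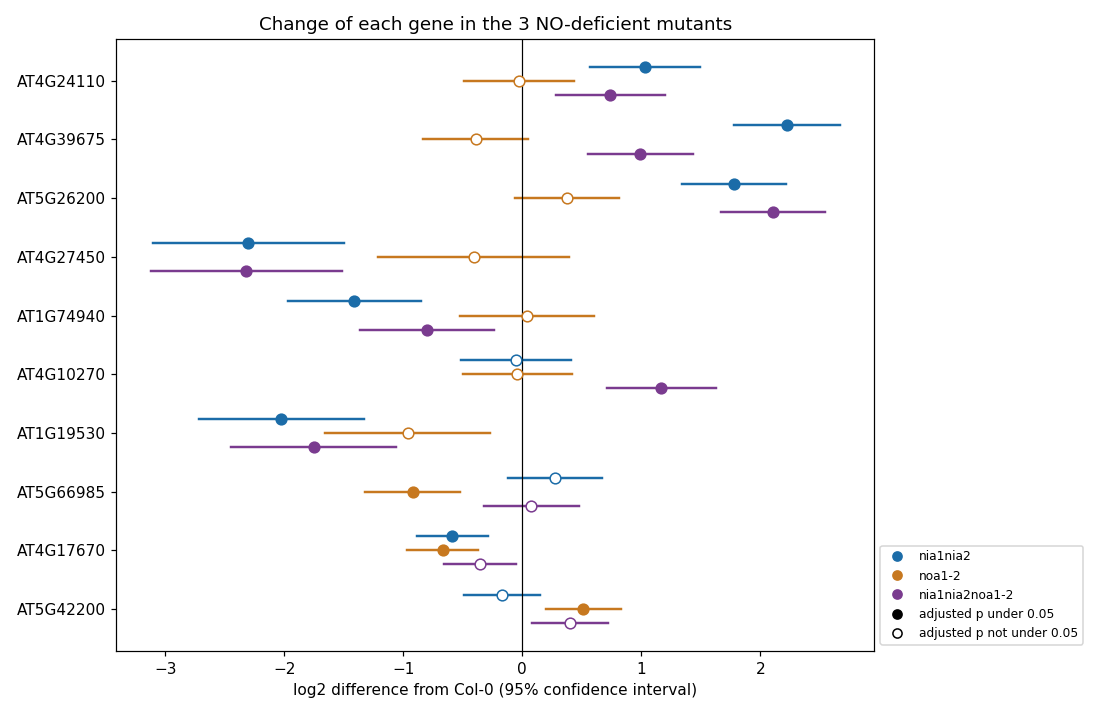
Log2 difference from Col-0 (horizontal axis) of each of the 10 genes in nia1nia2, noa1-2 and nia1nia2noa1-2, with 95% confidence intervals from the limma fit over 12 arrays. Filled points have an adjusted p under 0.05: 7 in nia1nia2, 3 in noa1-2 and 7 in nia1nia2noa1-2.

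AT5G26200, the mitochondrial carrier, showed the largest rise of the 10 genes in nia1nia2noa1-2 and nearly the same rise in nia1nia2. Its Col-0 arrays read 6.65, 6.23 and 6.30, and the noa1-2 arrays 6.90, 6.76 and 6.65. The nia1nia2 arrays read 8.35, 7.60 and 8.56, and the nia1nia2noa1-2 arrays 8.44, 8.47 and 8.58. Every array that carried nia1nia2 lay above every array that did not. The rise over Col-0 was 1.78 in nia1nia2 (3.43-fold, standard error 0.20, adjusted p = 2.81e-05) and 2.10 in nia1nia2noa1-2 (4.30-fold, standard error 0.20, adjusted p = 1.96e-05). Both also exceeded noa1-2, by 1.40 (adjusted p = 0.000122) and 1.73 (adjusted p = 0.000105), the first of which the methods' t-test did not call after adjustment (adjusted p = 0.0538 by that test). The levels of nia1nia2 and nia1nia2noa1-2 differed by 0.33 (95% confidence interval -0.11 to 0.76, adjusted p = 0.294), and noa1-2 stood 0.38 above Col-0 (adjusted p = 0.278). That last difference passed when limma was run on the 6 arrays of noa1-2 and Col-0 alone (adjusted p = 0.0489).

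AT4G39675 had its highest level in nia1nia2, and here the triple mutant fell between nia1nia2 and Col-0. The arrays read 7.29, 7.15 and 7.13 in Col-0 and 6.75, 6.45 and 7.20 in noa1-2, which overlapped. In nia1nia2 they read 9.55, 8.96 and 9.73, and in nia1nia2noa1-2 8.22, 8.31 and 8.01. The 3 levels were separate, with no overlap of nia1nia2 with nia1nia2noa1-2 or of either with Col-0. The gene rose by 2.22 in nia1nia2 (4.67-fold, standard error 0.20, adjusted p = 6.77e-06) and by 0.99 in nia1nia2noa1-2 (1.99-fold, standard error 0.20, adjusted p = 0.0043). The triple mutant lay 1.23 below nia1nia2 (standard error 0.20, adjusted p = 0.00358 by limma and 0.171 by the methods' t-test) and 1.38 above noa1-2 (adjusted p = 0.000559). It was the only one of the 10 genes called lower in nia1nia2noa1-2 than in nia1nia2.

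AT4G24110 was dim, with all Col-0 and noa1-2 arrays under 6. The Col-0 arrays read 5.54, 5.26 and 5.40 and the noa1-2 arrays 5.36, 5.37 and 5.38. In nia1nia2 the readings were 6.13, 6.17 and 6.99, and in nia1nia2noa1-2 they were 6.07, 6.51 and 5.84. The lowest array with nia1nia2 exceeded the highest array without it, and nia1nia2 and nia1nia2noa1-2 overlapped. The gene passed the filter on dim genes only through its means in nia1nia2 and nia1nia2noa1-2, the genotypes in which it was raised. The rise over Col-0 was 1.03 in nia1nia2 (2.04-fold, standard error 0.21, adjusted p = 0.0019) and 0.74 in nia1nia2noa1-2 (1.67-fold, standard error 0.21, adjusted p = 0.0255). Against noa1-2 the differences were 1.06 (adjusted p = 0.00139) and 0.77 (adjusted p = 0.0231). The call in nia1nia2noa1-2 against Col-0 was lost without Col-0 replicate 2 (0.67, adjusted p = 0.0867), without Col-0 replicate 3 (0.74, adjusted p = 0.0667), and without nia1nia2noa1-2 replicate 1 (0.78, adjusted p = 0.0582) or replicate 2 (0.56, adjusted p = 0.122). The call against noa1-2 was lost when either of those triple-mutant arrays or any noa1-2 array was left out, with adjusted p from 0.0585 to 0.118, while both calls of nia1nia2, against Col-0 and against noa1-2, held whichever array was left out. The methods' t-test called none of these 4 differences after adjustment (adjusted p = 0.0719 to 0.0939).

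**Figure D2:**
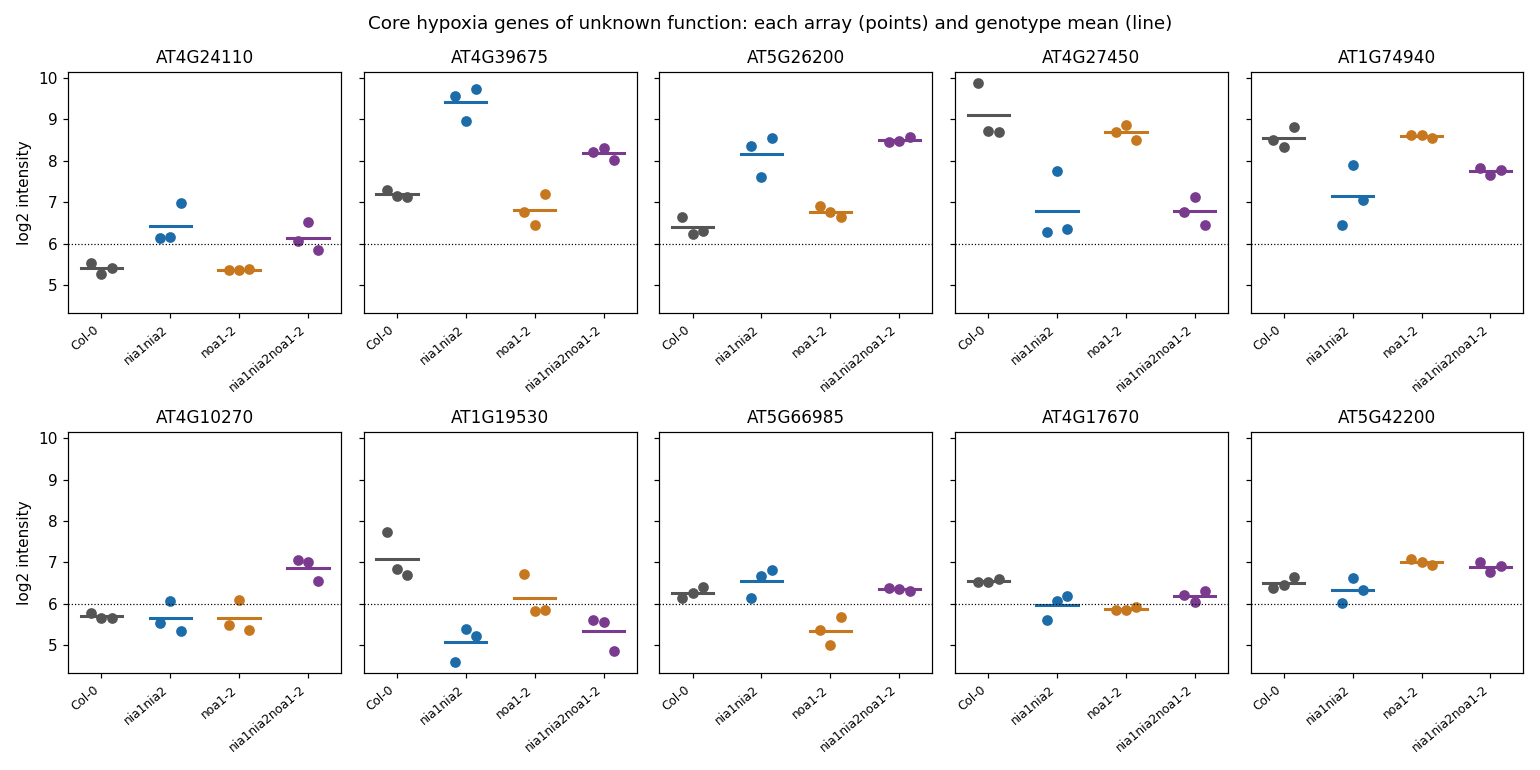
Log2 intensity (vertical axis) of each gene on every array, by genotype, in replicate order; horizontal lines are genotype means and the dotted line marks 6, the transition between noise and signal. The upper row holds the 5 genes that followed nia1nia2, and the lower row starts with AT4G10270, whose 3 nia1nia2noa1-2 arrays read 6.54 to 7.06 while all other arrays read 6.09 or less.

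The genes that fell together were brighter. AT4G27450, the aluminium-induced family protein, read 9.88, 8.72 and 8.69 in Col-0 and 8.70, 8.85 and 8.51 in noa1-2. The values dropped to 6.27, 7.75 and 6.36 in nia1nia2 and to 6.75, 7.12 and 6.46 in nia1nia2noa1-2. No array with nia1nia2 reached the lowest array without it. Replicate 1 of Col-0 and replicate 3 of nia1nia2 stood above the others of their genotypes by over 1 on the log2 scale. The gene fell by 2.30 in nia1nia2 (4.94-fold lower, standard error 0.37, adjusted p = 0.00035) and fell by 2.32 in nia1nia2noa1-2 (4.99-fold lower, standard error 0.37, adjusted p = 0.000818), and nia1nia2noa1-2 stood at -0.02 from nia1nia2 (95% confidence interval -0.82 to 0.78). Against noa1-2 the falls were -1.89 (adjusted p = 0.00117) and -1.91 (adjusted p = 0.00316), while noa1-2 itself was -0.41 from Col-0 (adjusted p = 0.548). The methods' t-test after adjustment called the fall in nia1nia2noa1-2 (adjusted p = 0.04) but not that in nia1nia2 (adjusted p = 0.0859). In limma, leaving out any of the 12 arrays kept both falls against Col-0, at -1.91 to -2.78 in nia1nia2 and -1.93 to -2.52 in nia1nia2noa1-2.

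AT1G74940, of the DUF581 family, gave 8.50, 8.33 and 8.82 in Col-0 and 8.62, 8.61 and 8.54 in noa1-2, which overlapped (difference 0.04, 95% confidence interval -0.52 to 0.60). The nia1nia2 arrays gave 6.46, 7.90 and 7.06, and the nia1nia2noa1-2 arrays 7.82, 7.66 and 7.77, all below Col-0 and noa1-2. The fall was 1.41 in nia1nia2 (2.66-fold, standard error 0.26, adjusted p = 0.000898) and 0.80 in nia1nia2noa1-2 (1.74-fold, standard error 0.26, adjusted p = 0.0432). Both were below noa1-2, by 1.45 (adjusted p = 0.000625) and 0.84 (adjusted p = 0.0397). The triple mutant's mean was 0.61 above that of nia1nia2 (adjusted p = 0.131), and its 3 arrays lay within the range of the nia1nia2 arrays. Without nia1nia2 replicate 3 that difference was 0.99 and was called (adjusted p = 0.00257). By the methods' t-test the fall in nia1nia2 was not called after adjustment (adjusted p = 0.111), whereas that in nia1nia2noa1-2 was called. In limma, the fall in nia1nia2noa1-2 against Col-0 was near the threshold, and no filter on dim genes or a 2-fold minimum lost it. It was also lost without any Col-0, nia1nia2noa1-2 or noa1-2 array (-0.67 to -0.91, adjusted p = 0.0582 to 0.152) and held without any nia1nia2 array. The difference from noa1-2 was lost without any array of these genotypes other than Col-0 replicate 3, with adjusted p up to 0.124.

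Replicate 3 of nia1nia2 was the nia1nia2 array nearest the Col-0 mean for 5 of the 7 genes called in nia1nia2, namely AT4G39675, AT5G26200, AT1G19530, AT4G27450 and AT1G74940. The same replicate was nearest for 54.5% of all 3022 genes called in that comparison. All 7 calls remained in limma when it was left out.

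AT4G10270, the wound-responsive family protein, was the only one of the 10 genes raised in nia1nia2noa1-2 alone. It read 5.78, 5.67 and 5.65 in Col-0, 5.54, 6.06 and 5.34 in nia1nia2, and 5.50, 6.09 and 5.38 in noa1-2. In nia1nia2noa1-2 it read 7.06, 7.0 and 6.54. The first 3 genotypes overlapped and all had means under 6, and the triple mutant lay above every one of their arrays. The rise was 1.17 over Col-0 (2.25-fold, standard error 0.21, adjusted p = 0.00193), 1.22 over nia1nia2 (2.33-fold, adjusted p = 0.00418) and 1.21 over noa1-2 (2.31-fold, adjusted p = 0.00172). These 3 calls held in limma whichever of the 12 arrays was left out, whereas the methods' t-test after adjustment called the rise over Col-0 (adjusted p = 0.0281) but not those over nia1nia2 (adjusted p = 0.185) and noa1-2 (adjusted p = 0.057). The single steps were not called, with nia1nia2 at -0.05 (95% confidence interval -0.51 to 0.41) and noa1-2 at -0.04 (-0.50 to 0.42) from Col-0. The gene entered the test through its level in nia1nia2noa1-2 alone, since its other 3 means lay under the floor of 6, and a smaller change among those genotypes could not be read.

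AT1G19530 was highest in Col-0 and fell in nia1nia2 and nia1nia2noa1-2, to levels that did not differ from each other beyond their spread (0.27, adjusted p = 0.608). The arrays read 7.74, 6.85 and 6.69 in Col-0 and 6.73, 5.82 and 5.84 in noa1-2. They read 4.60, 5.39 and 5.22 in nia1nia2 and 5.62, 5.55 and 4.85 in nia1nia2noa1-2, all under 6. The gene passed the filter on dim genes only through its means in Col-0 and noa1-2, the genotypes in which it was higher. With nia1nia2 and nia1nia2noa1-2 under the floor, the size of the falls is not exact. A difference between nia1nia2 and nia1nia2noa1-2 could not be read. Replicate 1 was the high array in both Col-0 and noa1-2, and these genotypes overlapped. The gene fell by 2.02 in nia1nia2 (4.07-fold, standard error 0.32, adjusted p = 0.000315) and fell by 1.75 in nia1nia2noa1-2 (3.37-fold, standard error 0.32, adjusted p = 0.002), while the methods' t-test after adjustment called neither (adjusted p = 0.0545 and 0.0571). The mean of noa1-2 lay between, at -0.96 from Col-0 (95% confidence interval -1.66 to -0.27, adjusted p = 0.083). It stood above nia1nia2 (difference 1.06, adjusted p = 0.017), a call lost without nia1nia2 replicate 2 (adjusted p = 0.0756) or noa1-2 replicate 1 (adjusted p = 0.0883), and its difference from nia1nia2noa1-2 was 0.79 (adjusted p = 0.109). With limma on the 6 arrays compared, noa1-2 was called lower than Col-0 (adjusted p = 0.0335) and nia1nia2noa1-2 lower than noa1-2 (adjusted p = 0.0425), and without noa1-2 replicate 1 the fall in noa1-2 was -1.26 (adjusted p = 0.047).

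AT5G66985 was the gene that fell in noa1-2 only. Its noa1-2 arrays read 5.36, 5.01 and 5.69, all under 6 and below every other array. The others read 6.15, 6.27 and 6.40 in Col-0, 6.15, 6.67 and 6.82 in nia1nia2, and 6.39, 6.35 and 6.31 in nia1nia2noa1-2, and overlapped. The fall in noa1-2 was 0.92 (1.89-fold, standard error 0.18, adjusted p = 0.00815 by limma and 0.0826 by the methods' t-test). In nia1nia2noa1-2, which carries the same noa1-2 allele, the level was 0.08 from Col-0 (95% confidence interval -0.32 to 0.47) and 1.00 above noa1-2 (adjusted p = 0.00238). The nia1nia2 level was 1.19 above noa1-2 (adjusted p = 0.000199) and 0.27 from Col-0 (adjusted p = 0.249), a difference that was called without nia1nia2 replicate 2 (0.47, adjusted p = 0.0421). The 3 calls that involve noa1-2 held with each array left out in turn. The gene passed the filter on dim genes only through the other genotypes, and its mean in noa1-2 (5.35) lay under the floor of 6.

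AT5G42200, the RING-type protein, was higher in the genotypes with the noa1-2 allele. It read 6.39, 6.45 and 6.65 in Col-0 and 6.02, 6.63 and 6.33 in nia1nia2, against 7.08, 7.01 and 6.94 in noa1-2 and 7.02, 6.76 and 6.91 in nia1nia2noa1-2. The lowest array with noa1-2 was above the highest without it. The rise in noa1-2 was 0.51 (1.43-fold, standard error 0.15, adjusted p = 0.0459 by limma and 0.057 by the methods' t-test), and the difference in nia1nia2noa1-2 was 0.40 (1.32-fold, standard error 0.15, adjusted p = 0.0673). The gene was lower in nia1nia2 than in noa1-2 (-0.68, adjusted p = 0.00219) and higher in nia1nia2noa1-2 than in nia1nia2 (0.57, adjusted p = 0.0217). Thus 1 test kept it from the definition of a gene that follows noa1-2. That test passed with limma on the 6 arrays compared (adjusted p = 0.017), where the test against nia1nia2 no longer did (adjusted p = 0.126), and it passed without any one nia1nia2 array (adjusted p = 0.0265 to 0.046). The differences were small, and the call in noa1-2 against Col-0 was lost without any array of Col-0, noa1-2 or nia1nia2noa1-2 (0.46 to 0.59, adjusted p = 0.0563 to 0.158). The call against nia1nia2 was lost without nia1nia2 replicate 2 (adjusted p = 0.0662) and without nia1nia2noa1-2 replicate 1 (adjusted p = 0.09) or replicate 3 (adjusted p = 0.0639).

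AT4G17670, of the DUF581 family like AT1G74940, fell in nia1nia2 and in noa1-2. The Col-0 arrays agreed closely at 6.53, 6.52 and 6.59, and the noa1-2 arrays at 5.85, 5.85 and 5.93. The nia1nia2 arrays read 5.62, 6.07 and 6.19, and the nia1nia2noa1-2 arrays 6.22, 6.04 and 6.32. All mutant arrays lay below Col-0, and the nia1nia2noa1-2 arrays lay above those of noa1-2. The fall was 0.59 in nia1nia2 (1.50-fold, standard error 0.14, adjusted p = 0.00455 by limma and 0.103 by the methods' t-test) and 0.67 in noa1-2 (1.59-fold, standard error 0.14, adjusted p = 0.00988). In nia1nia2noa1-2 the difference was -0.35 (1.28-fold, adjusted p = 0.088), and it was called with limma on the 6 arrays compared (adjusted p = 0.0198) and without nia1nia2 replicate 2 (adjusted p = 0.0249) or replicate 4 (adjusted p = 0.0363). The mean with both mutations lay 0.23 above that of nia1nia2 (adjusted p = 0.278) and 0.32 above that of noa1-2 (adjusted p = 0.141). The second of these differences was called on the 6 arrays compared (adjusted p = 0.0324) and without nia1nia2 replicate 2 (adjusted p = 0.0439). The gene was among the dimmest 9.82% of those tested. It passed the filter on dim genes only through Col-0 and nia1nia2noa1-2, with its means in nia1nia2 and noa1-2 under the floor of 6.

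The direct tests between the mutants are listed here, and since the definitions of the groups above use them, they are not separate evidence for those groups. Between nia1nia2 and noa1-2, 4 genes were higher in nia1nia2 (AT4G24110, AT4G39675, AT5G26200 and AT5G66985) and 4 lower (AT1G19530, AT5G42200, AT4G27450 and AT1G74940), beside 17.2% and 25.8% of all tested genes. Adding nia1nia2 to noa1-2 raised 5 genes and lowered 2, beside 9.40% and 9.17%, the 5 being AT4G10270, AT4G24110, AT4G39675, AT5G26200 and AT5G66985. Adding noa1-2 to nia1nia2 raised AT4G10270 and AT5G42200 and lowered AT4G39675, beside 9.97% and 5.19%.

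The change in nia1nia2noa1-2 was compared with the changes of nia1nia2 and of noa1-2 added together, which is what independent, additive effects on the log2 scale would give. The departure was called for 2 genes, both upward and none downward, beside 2.46% and 1.01% of all tested genes. AT4G10270 had changes of -0.05 in nia1nia2, -0.04 in noa1-2 and 1.17 in nia1nia2noa1-2, a departure of 1.26 (standard error 0.30, adjusted p = 0.0361). AT4G17670 had changes of -0.59, -0.67 and -0.35, a departure of 0.90 (standard error 0.20, adjusted p = 0.0253). AT1G19530, with 1.23 (adjusted p = 0.131), AT5G66985, with 0.72 (adjusted p = 0.124), and AT4G39675, with -0.84 (adjusted p = 0.111), did not pass. Without nia1nia2 replicate 3 the departures of AT4G39675 (-1.07, adjusted p = 0.0191) and AT1G74940 (0.95, adjusted p = 0.025) were called, and without nia1nia2 replicate 4 that of AT5G66985 was (0.86, adjusted p = 0.0418). The departure of AT5G26200 was -0.05 (95% confidence interval -0.67 to 0.57). The call of AT4G10270 compares the genotype through which the gene passed the filter with 3 means under the floor, and it was lost with no filter on dim genes (adjusted p = 0.0506), with array weights (0.0612), with centred arrays (0.0505) and with quantile normalization (0.0508). The call of AT4G17670 has a like limit. That gene passed the filter only through Col-0 and nia1nia2noa1-2, and its means in nia1nia2 (5.96) and noa1-2 (5.88) lay under the floor. With all 12 arrays in the fit and the gene past the filter, a 2-fold minimum was the only setting that lost the departure call of AT4G17670. Both calls were lost without any Col-0 array, without nia1nia2noa1-2 replicate 1 and without noa1-2 replicate 1 or 3. That of AT4G10270 was lost also without nia1nia2 replicate 2 or nia1nia2noa1-2 replicate 2, and that of AT4G17670 without nia1nia2noa1-2 replicate 3 or noa1-2 replicate 2. Over all 12 omissions the values ran from 1.11 to 1.48 for AT4G10270 and from 0.73 to 1.02 for AT4G17670, with adjusted p up to 0.109 and 0.0799.

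**Figure D3:**
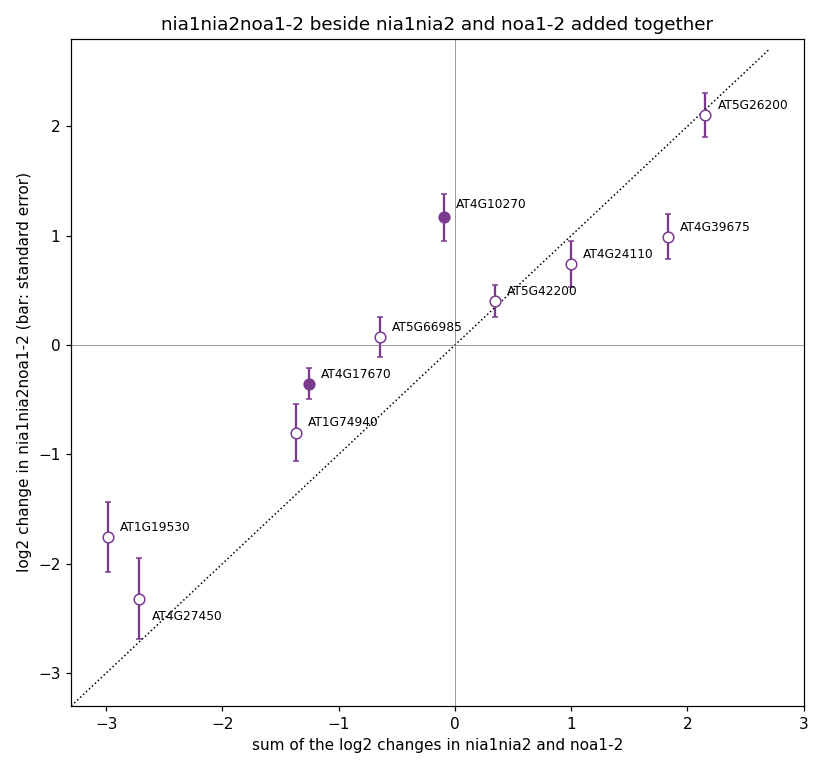
Log2 change in nia1nia2noa1-2 (vertical axis, bars are standard errors) against the log2 changes of nia1nia2 and noa1-2 added together (horizontal axis) for each gene; the dotted line marks equality and filled points had a called departure. AT4G10270 and AT4G17670 lie above the line, by 1.26 and 0.90.

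Genes grouped by the same genotype pattern correlate over the 12 arrays by that choice, and the values within genotypes, after each genotype mean was taken away, were weaker. AT5G26200 and AT4G27450 correlated at r = -0.92 over the arrays and -0.40 within genotypes, and AT4G39675 and AT1G74940 at -0.92 and -0.58. AT4G24110 and AT4G39675 correlated at 0.89 and 0.53, AT4G27450 and AT1G74940 at 0.86 and 0.59, and AT4G24110 and AT4G27450 at -0.77 and 0.04. AT1G19530 and AT4G27450 correlated at 0.89, and within genotypes at 0.67. The closest pair within genotypes was AT5G42200 and AT1G74940, at 0.93, although these genes differ in their pattern across genotypes. The arrays share their genotype, RNA and normalization, and these values describe 12 arrays only.

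For each of the 10, the 2 tested genes with the highest r over the 12 arrays were taken, a choice that itself favours genes with the same genotype pattern. AT4G24110 was matched by AT1G19020 (r = 0.99) and AT1G33030 (r = 0.98), which stood 2.01 and 1.22 above Col-0 in nia1nia2. AT5G26200 was matched by HYH (r = 0.99), a bZIP transcription factor of light responses, and by AT5G47550 (r = 0.98). HYH stood 2.60 above Col-0 in nia1nia2 and 2.63 in nia1nia2noa1-2. AT4G39675 was matched by AT4G31860 and AT5G64250 (r = 0.99 for each), which also lay between nia1nia2 and Col-0 in the triple mutant, 0.81 and 0.83 above Col-0 against 1.89 and 1.83 in nia1nia2. The falling AT4G27450 was matched by AT3G62010 and AT1G56220 (r = 0.97 and 0.96), and AT1G74940 by AT3G43610 and AT1G23390 (r = 0.98 and 0.97). AT1G19530 was matched by AT1G33050 and AT1G30440 (r = 0.97 and 0.95).

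For the other 4 genes the nearest matches had r of 0.88 to 0.95. AT4G10270 was matched by AT5G09760 (r = 0.91) and PHOS34 (r = 0.90), a universal stress protein, whose differences from Col-0 in nia1nia2noa1-2 were 0.47 and 0.20 against 1.17 for AT4G10270. AT5G66985 was matched by AT2G21045 and AT2G18980 (r = 0.94 and 0.93), AT4G17670 by AT2G39420 and AT1G11540 (r = 0.94 and 0.88), and AT5G42200 by AT5G57370 and AT1G25400 (r = 0.95 for each). The match AT1G25400 stood 0.83 above Col-0 in noa1-2, more than AT5G42200.

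Relatives of 5 of the 10 genes were tested, and they moved in both directions. Of the 16 other DUF581 genes listed, 9 were tested. In nia1nia2noa1-2, 4 rose and 1 fell, beside 10.6% and 11.3% of all tested genes. In nia1nia2, 4 rose and 1 fell, beside 16.4% and 26.6%. The methods' t-test after adjustment called 2 of the 9 in nia1nia2noa1-2 and 2 in nia1nia2. In noa1-2 none rose and 1 fell, beside 5.00% and 4.08% (3 had an unadjusted p under 0.05 in limma, and 1 passed the methods' t-test after adjustment). AT1G22160 fell in all 3 mutants, to -1.26 from Col-0 in noa1-2, -1.61 in nia1nia2 and -1.90 in the triple mutant (standard errors 0.23). The risers included AT3G22550 (1.35 in nia1nia2, adjusted p = 4.82e-05), AT5G47060 (0.89, adjusted p = 0.00038) and AT5G20700 (0.48, adjusted p = 0.0238). AT1G74940 and AT4G17670 thus fell in nia1nia2 while the median of the 9 relatives there was 0.46.

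AT4G10270 and its 2 tested relatives, of 5 listed, went opposite ways in the triple mutant. AT4G28240 fell by 0.83 (adjusted p = 0.0277) and AT4G05070 by 0.66 (adjusted p = 0.0237) in nia1nia2noa1-2, and both also fell in nia1nia2, by 0.79 and 0.81, where AT4G10270 was not called. The methods' t-test after adjustment called neither of these relatives in nia1nia2noa1-2 or in nia1nia2. Neither was called in noa1-2 (0 at an unadjusted p under 0.05 in limma and 0 by the methods' t-test after adjustment). All 4 relatives of AT4G27450 were tested. In nia1nia2, AT3G15450 fell by 2.73, AILP1 by 0.98 and AT5G43830 by 0.56, whereas AT3G22850 rose by 1.28. The methods' t-test after adjustment called 1 of these 4 in nia1nia2. In nia1nia2noa1-2, AILP1 fell by 1.40, AT5G43830 fell by 0.71 and AT3G22850 rose by 0.88, while AT3G15450 stood at -1.14 (adjusted p = 0.224 by limma). The methods' t-test after adjustment called all 4 in nia1nia2noa1-2, the fall of AT3G15450 among them. The share of all tested genes that this t-test called was not counted. None of the 4 was called in noa1-2 (1 at an unadjusted p under 0.05, 0 by the t-test). Of the carriers related to AT5G26200, AT1G72820 fell by 1.09 in nia1nia2 and AT5G15640 rose by 0.32, beside 1.78 for AT5G26200, and AT5G15640 also rose in nia1nia2noa1-2, by 0.36. The methods' t-test after adjustment called neither of these relatives in nia1nia2 or in nia1nia2noa1-2. Neither was called in noa1-2 (0 at an unadjusted p under 0.05, 0 by the t-test). Of all tested genes, limma called 16.4% raised and 26.6% lowered in nia1nia2, and 10.6% and 11.3% in nia1nia2noa1-2. In noa1-2 these shares were 5.00% and 4.08%.

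**Figure D4:**
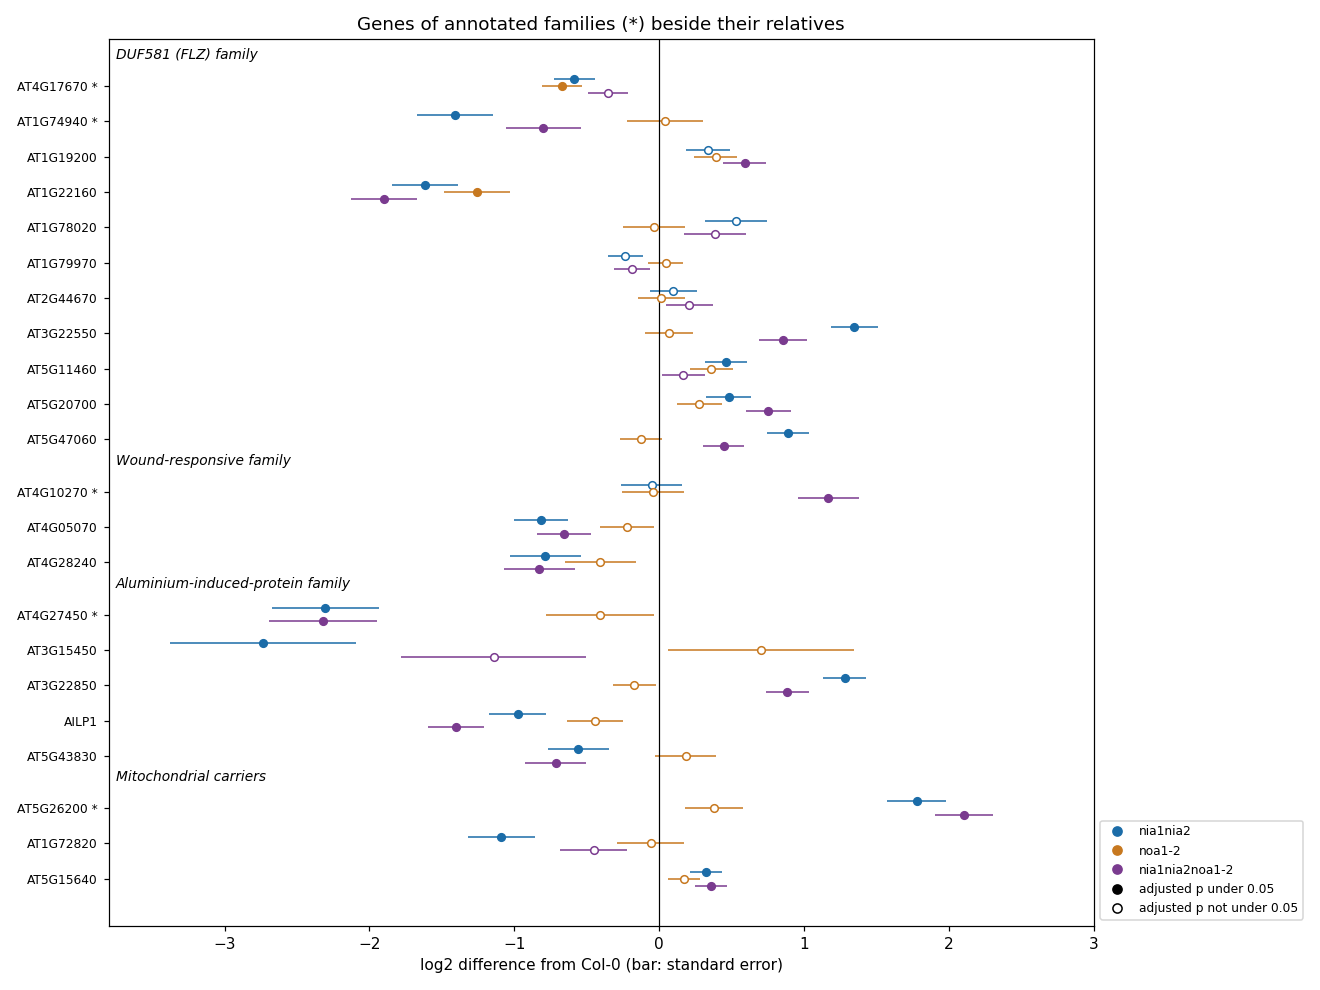
Log2 difference from Col-0 (horizontal axis, bars are standard errors) of the 5 genes with tested relatives, marked by a star, and of those relatives, in the 3 mutants; filled points have an adjusted p under 0.05. In the wound-responsive family AT4G10270 lies at 1.17 in nia1nia2noa1-2 and its relatives at -0.83 and -0.66.

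Of 34 other genes of the hypoxia response listed, 12 were named on the array here and 8 were tested. In nia1nia2noa1-2 none of the 8 was called by limma (1 had an unadjusted p under 0.05) or by the methods' t-test after adjustment, and their median difference was 0.08. Of all tested genes, 10.6% rose and 11.3% fell in nia1nia2noa1-2. In nia1nia2, 2 rose (AT3G03270 by 0.34 and TIL, a lipocalin, by 0.65) and 3 fell, among them AT4G17260, a lactate dehydrogenase, by 0.46 and AT1G33055 by 0.66. Of all tested genes, 16.4% rose and 26.6% fell in nia1nia2, and the methods' t-test after adjustment called 2 of the 8. AT4G17260 also fell in noa1-2, by 0.40, and none of the 8 rose there, beside 4.08% and 5.00% of all tested genes. The methods' t-test after adjustment called none of the 8 in noa1-2. Only 2 of the 15 genes listed for the N-end rule pathway and the group VII ERFs were tested, and neither was called in any mutant against Col-0 by limma or by the methods' t-test after adjustment (1 had an unadjusted p under 0.05 in nia1nia2noa1-2, 1 in nia1nia2 and none in noa1-2). Between nia1nia2 and noa1-2 both were called by limma, AT2G44420 higher in nia1nia2 by 0.41 (adjusted p = 0.0366) and AT2G41760 lower (-0.30, adjusted p = 0.0461), and neither by the methods' t-test after adjustment. These results cover AT2G44420 and AT2G41760 only, and the other genes of that list could not be read here. AT3G15450, the 1 gene tested of 10 listed as induced by darkness and sugar starvation, fell in nia1nia2 with AT4G27450 and AT1G74940. Its fall in nia1nia2 was called by limma only, and its fall in nia1nia2noa1-2 by the methods' t-test after adjustment only.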

How the data were processed

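Raw files were, per the methods of the authors, corrected for background and normalized with RMA. The authors deposited 1 linear intensity for each probe set of each array, and its log2 was taken here. A custom chip definition file is named in the methods, whereas the values carry Affymetrix probe-set names, and the sources used here do not say which definition made them. In the submitters' processing notes limma appears without a version. The table of 22810 probe sets held 64 controls, 13513 sets with a single gene, 503 with more than one and 8730 with none listed. Where a gene had more than one set (147 genes), the set with the highest mean was used. Array medians were 76.1 to 86.8 intensity units. Precision is limited by the small number of arrays.

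Tested were the 7034 genes whose mean log2 reached 6 in 1 genotype or more, in limma 3.58.1 under R 4.3.3 (lmFit, eBayes; 12 arrays; 8 residual degrees of freedom), with Benjamini-Hochberg adjustment over all of them and a threshold of 0.05. Mutants were set against Col-0 and against each other, and the departure from additivity was fitted as a contrast. The fit was tested on simulated data in which all genotypes had the same spread. The wider spread of the nia1nia2 arrays was not simulated, so that test does not cover it. The 10 genes, the lists of relatives and the rules were chosen with earlier results of these data known. All 10 are named, with the 2 genes most correlated with each over the arrays and up to 4 called genes of each list. Of 8 leaf genes 1 was tested, of 11 root genes 1, and none of 3 genes of the flowering transition was named. As alternatives, the filter on dim genes, the test (the methods' t-test), the arrays in the fit, array weights, scaling between arrays, a block for the replicate number, the variance prior, the handling of probe sets and a 2-fold minimum were varied, and each array was left out. In any pair of replicates 1.32% to 3.98% of probe sets had equal values, so no array copied another. Figures were drawn with matplotlib 3.10.9.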

Additional observations from a re-analysis of the deposited data

Results flagged for a closer look

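For 2 of the 10 genes the departure from additivity was called in limma, which sets the effect of one mutation against its effect with the other present. AT4G10270 departed by 1.26 on the log2 scale (adjusted p = 0.0361): nia1nia2 shifted it by -0.05 from Col-0 and by 1.21 from noa1-2. AT4G17670 departed by 0.90 (adjusted p = 0.0253): nia1nia2 lowered it by 0.59 from Col-0, and nia1nia2noa1-2 stood 0.32 above noa1-2. Each call held in 4 of the 12 fits with an array left out. Of 9 other settings, that of AT4G17670 held in 8 and that of AT4G10270 in 4. AT4G10270 passed the filter on dim genes only through nia1nia2noa1-2. AT4G17670 passed it only through Col-0 and nia1nia2noa1-2, and its means in nia1nia2 and noa1-2 lay under the floor of 6.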

How the results depend on the processing

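No called value of the 10 genes changed direction under any alternative. Of the 37 called comparisons, those lost with an array left out are given with each gene above. The count of genes called in the departure ran from 0 to 4 over the 12 omissions. It was 0 without any one Col-0 array, without nia1nia2noa1-2 replicate 1 and without noa1-2 replicate 1 or 3, where 4 or 5 genes had an unadjusted p under 0.05 in limma, and 4 without nia1nia2 replicate 3. It was 1 with no filter on dim genes, with array weights, with each array centred on its median and with quantile normalization, AT4G10270 being lost each time, and 1 with a 2-fold minimum, where AT4G17670 was lost. With a mean of at least 7 required, only 6 of the genes stayed in the fit, and 1 was called in noa1-2, 4 between nia1nia2noa1-2 and noa1-2 and 0 in the departure (2 at an unadjusted p under 0.05). The methods' t-test after Benjamini-Hochberg adjustment called 2 genes in nia1nia2 (AT4G39675 and AT5G26200, losing AT4G24110, AT1G19530, AT4G17670, AT4G27450 and AT1G74940), 1 in noa1-2 (AT4G17670), 0 between nia1nia2noa1-2 and nia1nia2 (3 at an unadjusted p under 0.05) and 1 between nia1nia2 and noa1-2 (AT4G39675). In noa1-2 against Col-0, limma on the 6 arrays compared and array weights each called 5 genes, and the 2-fold minimum 0, since the 3 calls were under that fold. The 2-fold minimum left 4 genes in nia1nia2noa1-2 against Col-0 and 4 against noa1-2. Shares of all tested genes called were counted for the main limma fit only. Counts under other settings, here and with the replicate block below, therefore stand without a share. A change in such a count cannot be told apart from a setting that calls more or fewer genes everywhere. Beyond these counts the cause was not tested.

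Whether replicate numbers pair the samples was not settled. The deviations of 15 same-numbered pairs correlated at -0.11 to 0.28, over 0.1 in 4. Those of noa1-2 with nia1nia2noa1-2 were all positive (0.087 to 0.21). Differently numbered pairs were not computed for comparison. With the replicate number as a block, 9 genes were called in nia1nia2noa1-2 and 4 in noa1-2 against Col-0 (AT1G19530 gained, -0.96, adjusted p = 0.0149), and the departure of AT4G10270 was 1.09 (adjusted p = 0.0503) and that of AT5G66985 0.87 (adjusted p = 0.0315).

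Signs turned only for values that were not called. For AT4G10270, nia1nia2 against Col-0 became 0.047 with centring, 0.024 with quantile normalization and 0.12 with the block, noa1-2 against Col-0 0.013 and 0.0051 with the first 2 of these, and nia1nia2 against noa1-2 0.033, 0.018 and 0.16. For AT4G24110, noa1-2 against Col-0 became 0.027 and 0.010 with centring and quantile normalization, and the departure 0.01 with the block. For AT5G42200 the departure became -0.10 and -0.092 with centring and quantile normalization. With the block, nia1nia2 against noa1-2 became -0.034 for AT4G17670 and the departure 0.09 for AT5G26200. With each array left out in turn, AT4G10270 ran from -0.26 to 0.10 in nia1nia2, from -0.26 to 0.10 in noa1-2 and from -0.22 to 0.21 between them. In noa1-2 against Col-0, AT4G24110 ran from -0.10 to 0.04 and AT1G74940 from -0.07 to 0.18. The departure ran from -0.45 to 0.02 for AT4G24110, from -0.34 to 0.15 for AT5G26200 and from -0.10 to 0.21 for AT5G42200. AT4G27450 ran from -0.28 to 0.46 between nia1nia2noa1-2 and nia1nia2, and AT4G17670 from -0.032 to 0.25 between nia1nia2 and noa1-2. The 5 genes among the dimmest 10% of those tested, AT4G10270, AT4G24110, AT1G19530, AT5G66985 and AT4G17670, lie near the noise, which limits the size of their changes.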
